A study of Caenorhabditis elegans with 2 samples.

Results

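The genes described here are 5 basic helix-loop-helix (bHLH) transcription factor genes of Caenorhabditis elegans, hlh-11, hlh-29, hlh-30, lin-32 and mdl-1, set against binding sites of the zinc finger protein KLU-1. They are 5 of the 41 genes on a list of the bHLH family and of 19973 protein-coding genes, and they were chosen by measured values of these same data, namely by having KLU-1 peaks assigned to them. Every peak count and signal at them is therefore a description, given with no test. Each gene was searched from 5 kb upstream of its first transcript start to its end, and a peak belonged to this window when its summit lay inside it. By that rule, 2 of the 5 genes held a peak in the pooled thresholded list (hlh-11 and hlh-30), while all 5 were the gene whose transcript start was nearest to one peak of that list. Of all protein-coding genes, 8.35% held such a peak in the window and 4.76% were nearest to one; because the peaks chose the genes, nothing is read from their counts against these shares. The description of all 5 as genes with peaks therefore did not hold for hlh-29 and lin-32, which held none in any thresholded list, and held for mdl-1 in the conservative list only.

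The study has 1 group and no second condition. It holds 2 biological replicates of whole L4 larvae at 47 h, of strain RW12326, which carries the insertion st12326 (ZK337.2::TY1::EGFP::3xFLAG) made by CRISPR at klu-1 (ZK337.2) on chromosome I, and which had been synchronised by starvation at the L1 stage after bleaching. Chromatin was sonicated and precipitated with an antibody to GFP, so the lists show where the tagged protein was recovered in all tissues of the animal together, and a strong site in few cells and a weak one in many cannot be told apart. The lists do not show how much of any mRNA was made. The sex of the animals was not collected, per the labels, and an untagged strain was not analysed here.

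The deposited lists were made per replicate and on both replicates together. The pooled thresholded list held 1043 peaks and its conservative counterpart 988, while replicate 1 alone gave 566 and replicate 2 alone gave 378. A ranked list of 128328 pooled peaks, most of them weak, also gave each peak its irreproducible discovery rate (IDR), the estimated share of irreproducible peaks among those ranked at least as high, and the peaks of the thresholded lists all lay under an IDR of 1%. The signal of a peak is the authors' own strength value, whose scale is not stated. Its median was 78.8 over the thresholded peaks and 20.6 over the ranked ones. Read depth is not in the lists and is unknown here.

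Proteins of the bHLH class bind DNA as pairs, through a basic stretch that reads the E box, CANNTG, and a helix-loop-helix that joins the partners. The family sets cell fates in nerve and muscle and, in other branches, controls growth and metabolism. HLH-30 is the worm counterpart of mammalian TFEB, which switches on autophagy and lysosome genes in starvation. MDL-1 is the Mad-like protein of the Myc, Max and Mondo network and pairs with MXL-1. LIN-32 is the counterpart of fly Atonal and is needed to make touch receptor neurons and the sensory rays of the male tail. HLH-29 and its near-identical neighbour HLH-28 belong to the REF-1 family of worm repressors related to Hairy and Enhancer of split. HLH-11 is the counterpart of mammalian TFAP4 (AP4). KLU-1 itself is named after fly Klumpfuss, a zinc finger protein of the EGR and WT1 class, whose members read GCGTGGG and like sequences.

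The sequences under the summits show how unlike the sites were. Each is read from the RefSeq WBcel235 genome, the assembly that the lists call ce11, on the strand of the named gene, and covers 50 bases on each side of the summit, except at hlh-11, where it runs from the edge of the peak to the base before the gene. At lin-32 the capitals mark a tRNA gene; in the others they mark CANNTG and GAGAG, which may read CTCTC on this strand. The windows are chrX:2227179-2227279 (minus strand) for lin-32, chrX:17544526-17544626 (minus) for hlh-29, chrX:6749210-6749310 (plus) for the mdl-1 peak of the thresholded list, chrX:6737822-6737922 (plus) for the mdl-1 peak of the conservative list, chrIV:4020186-4020286 (minus) for hlh-30 and chrIII:9619588-9619710 (plus) for hlh-11.
lin-32: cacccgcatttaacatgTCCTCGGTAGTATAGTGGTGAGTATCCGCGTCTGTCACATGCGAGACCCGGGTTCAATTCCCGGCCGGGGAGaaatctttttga
hlh-29: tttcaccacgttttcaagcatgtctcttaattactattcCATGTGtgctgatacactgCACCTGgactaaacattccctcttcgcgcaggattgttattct
mdl-1, thresholded: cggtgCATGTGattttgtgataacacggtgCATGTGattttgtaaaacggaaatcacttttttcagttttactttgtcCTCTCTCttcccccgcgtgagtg
mdl-1, conservative: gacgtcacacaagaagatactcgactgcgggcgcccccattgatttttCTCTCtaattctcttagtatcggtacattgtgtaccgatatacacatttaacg
hlh-30: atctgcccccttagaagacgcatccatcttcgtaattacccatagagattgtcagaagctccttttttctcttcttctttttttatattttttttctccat
hlh-11: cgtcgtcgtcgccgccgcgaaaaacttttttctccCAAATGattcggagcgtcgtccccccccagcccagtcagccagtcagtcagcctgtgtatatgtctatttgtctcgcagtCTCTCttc

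No summit window of the 5 thresholded peaks held GCGTGGG, which was found, on either strand and within 50 bp of the summit, at 3.36% of all thresholded and 0.461% of all ranked summits. Its shorter core GTGGG was likewise in none of the 5, against 20.5% of thresholded and 9.55% of ranked summits. CACCC stood in 1, the lin-32 window, where it forms the first bases of the printed stretch, against 15.4% and 8.11%. GAGAG was in the windows of hlh-11 and mdl-1, 2 of 5, against 32.9% of thresholded and 14.99% of ranked summits. The E box CANNTG was in 3 of 5, those of hlh-29, lin-32 and mdl-1, and at 35.1% of thresholded and 35.3% of ranked summits; the E box printed for hlh-11 lies farther than 50 bp from its summit. The palindromic E box CACGTG and TCACGTGA, the form known from TFEB targets, were in none of the 5, against 2.30% and 0.288% of the thresholded summits. The E box CATGTG stood in the windows of hlh-29 and mdl-1, at mdl-1 inside a direct repeat, and reads CACATG in the tRNA gene of the lin-32 window. The share of all summits with this spelling was not computed, so nothing is read from its presence here. These are matches of letters and not measured sites.

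Base composition within 50 bp of the summits ran from 35.6% G and C at hlh-30, where the strand of the gene holds a long run of pyrimidines, to 56.4% at hlh-11. For hlh-11 this is not the printed stretch, which ends before the gene. The lin-32 window had 52.5%, the hlh-29 window 41.6%, and those of mdl-1 42.6% and 43.6%. The medians were 49.5% over thresholded and 38.6% over ranked summits, so hlh-11 and lin-32 lay above the median of the thresholded peaks and the other 3 genes below it.

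**Figure D1:**
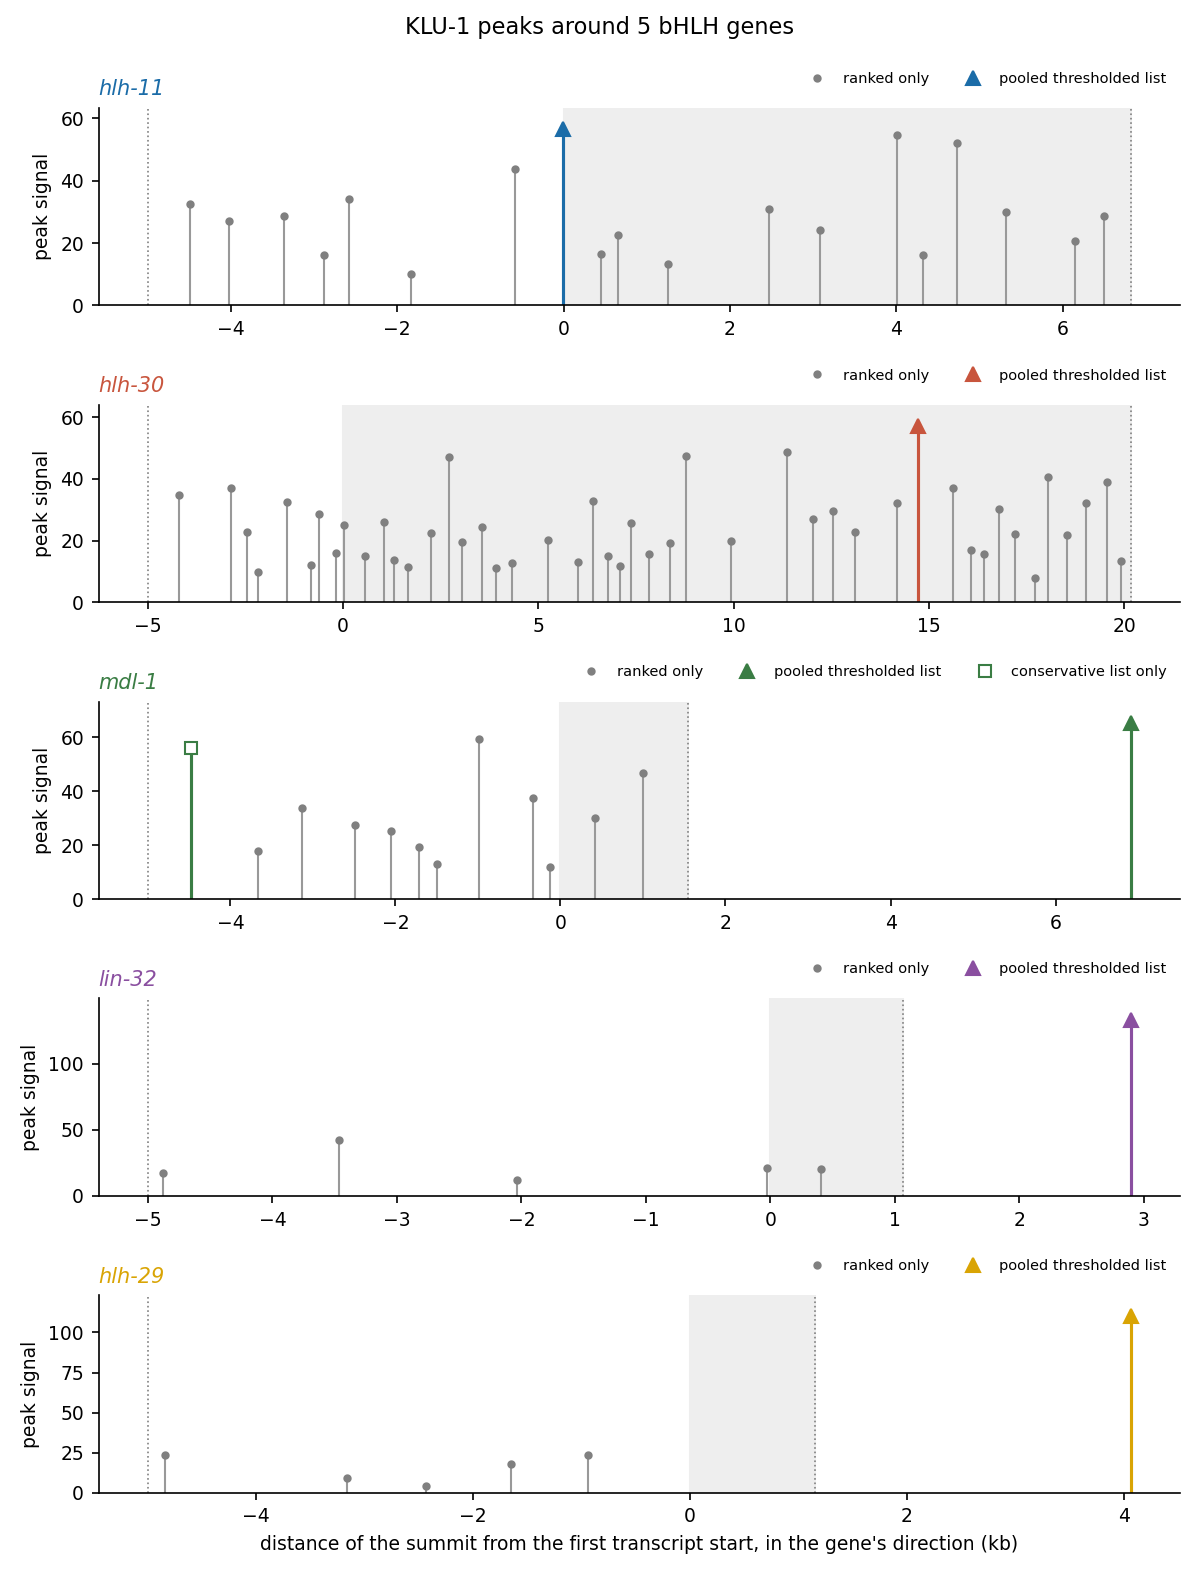
Peaks around the 5 genes. The x axis is the distance of the summit from the first transcript start in kb, in the direction of the gene, and the y axis is the peak signal in the pooled lists; the shaded band is the gene, dotted lines are the ends of the window, circles are ranked peaks inside the window that are in neither list, triangles are peaks of the pooled thresholded list, and the open square is the mdl-1 peak of the conservative list. Ranked peaks outside the windows are not drawn. The thresholded peaks of lin-32, hlh-29 and mdl-1 stand beyond the gene end, and those of hlh-11 and hlh-30 inside the window.

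The peak at hlh-11 (WBGene00001955, chrIII:9619711-9626529, plus strand) was the only one of the 5 in a promoter, taken as the stretch around a transcript start from 500 bp before it to 100 bp after it. It spanned chrIII:9619588-9619827, and its summit at 9619708 lay 3 bp upstream of the first of 6 annotated starts. Its pooled signal was 56.5, rank 966 of 1043, with an IDR of 0.807%, close inside the threshold, and of 1.31% in the conservative ranking, outside it. Replicate 1 gave it a signal of 36.0, at rank 886 of its ranked list and an IDR of 2.00%. In replicate 2 no ranked peak overlapped it by 50% of the shorter peak; the closest had its summit 125 bp away, shared 107 bp with it, and had a signal of 25.6 at rank 5968. The hlh-11 peak was thus in neither replicate's own thresholded list.

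Inside hlh-11, a pair of weaker peaks of nearly the same size lay in coding exons and did not pass. The one 4015 bp downstream of the first start had a signal of 54.6, an IDR of 2.05%, and signals of 25.7 in replicate 1 and 28.2 in replicate 2. The other, 4726 bp downstream, had a signal of 52.2 and an IDR of 3.11%. By the overlap rule, these exonic peaks were matched in both replicates, and the promoter peak that passed in replicate 1 only. This contrast rests on the rule, because a replicate 2 peak with a signal of 25.6 shared 107 bp with the promoter peak. Under a rule of 1 shared bp, the promoter peak would be matched in replicate 2 too, and the contrast would be gone. Under a rule of summits within 100 bp it would stay unmatched, because that replicate 2 summit lay 125 bp away. In all, the hlh-11 window of 11.8 kb held 19 ranked peaks, 8 of them matched in both replicates' ranked lists. The nearest gene upstream, hcp-3, which encodes the centromeric histone H3 variant, lies 3240 bp away on the other strand.

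The peak at hlh-30 (WBGene00020930, chrIV:4014793-4034951, minus strand) lay deep in an intron. It spanned chrIV:4020116-4020355, with its summit at 4020236, 14715 bp downstream of the first transcript start. The gene has 10 annotated starts, and the summit lay downstream of 4 of them and upstream of the other 6, which begin 1192 to 1905 bp further on. It was therefore within no promoter window, although short transcripts of hlh-30 begin on its downstream side. The non-coding RNA gene W02C12.4, lay 176 bp from the summit.

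The hlh-30 peak differed most between the replicates among those with a value in both. Its pooled signal was 57.2, rank 960 of 1043, and its IDR was 0.760% in the pooled and 7.89% in the conservative ranking. Replicate 1 gave it 37.2, rank 545 of 566 in its thresholded list, and replicate 2 gave it 18.96, at rank 22080 of 95500 ranked peaks and an IDR of 69.4%. The ratio of replicate 1 to replicate 2 was 1.96, at or above that of 94.9% of the thresholded peaks with a value in both, whose median was 1.04 with quartiles of 0.825 and 1.34. The peak was in the list of replicate 1 alone, and without that replicate hlh-30 had no thresholded peak.

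The hlh-30 window, at 25.2 kb the longest of the 5, held 46 ranked peaks, of which 16 were matched in both replicates' ranked lists and 26 lay in introns. The strongest that did not pass were 3 intronic peaks with signals of 48.6, 47.4 and 47.0 and IDRs of 6.50%, 4.32% and 5.62%. Their distances from the first start were 11365, 8777 and 2714 bp. In the 250 bp bin around the summit at 11365 bp, 47.6% of 31-base words occur once in the genome. In the bins of the summits at 8777 and 2714 bp that share was 100%. At 1.83 ranked peaks per kb, hlh-30 and mdl-1 lay at or above about 94.2% and 94.3% of protein-coding genes, whose median was 1.35.

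At mdl-1 (WBGene00003163, chrX:6742351-6743899, plus strand) the lists differed in which peak they kept. The peak of the pooled thresholded list that is nearest to its start spanned chrX:6749140-6749379, with its summit at 6749260, 6909 bp from the start and 5361 bp past the gene end, in an intron of abts-4, an anion transporter gene on the other strand. Its signal was 65.3, rank 778 of 1043, with an IDR of 0.616%, and 1.23% in the conservative ranking. Replicate 1 gave it 30.8 and replicate 2 gave it 27.2, with IDRs of 7.06% and 57.5%, so neither replicate's own list held it. It is the highest-ranked of the peaks here that missed both single-replicate lists.

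The conservative list held instead a peak inside the mdl-1 window, at chrX:6737752-6737991, 4479 bp upstream of the start and intergenic. Its signal was 55.9, rank 937 of 988, with signals of 31.2 in replicate 1 and 28.9 in replicate 2 and replicate summits 8 bp apart. Its IDR was 0.926% in the conservative ranking, just inside the threshold of 1%, and 2.07% in the pooled one, outside it. A peak with a higher signal, 59.1, lay 984 bp upstream of mdl-1 at the non-coding RNA gene R03E9.9 and passed in neither list, with IDRs of 1.53% and 1.07% and signals of 27.6 and 30.2 in replicates 1 and 2. That signal is above those of the hlh-11 and hlh-30 peaks that passed, so around the threshold the order by IDR and the order by signal were not the same. The mdl-1 window of 6.55 kb held 12 ranked peaks, 5 of them matched in both replicates' ranked lists.

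The peak nearest to lin-32 (WBGene00003018, chrX:2229055-2230122, minus strand) was the strongest of the 5, and its summit lay inside a tRNA gene. It spanned chrX:2227109-2227348, with its summit at 2227229, 1826 bp past the end of lin-32 and between that gene and hex-1, a hexosaminidase gene. Its signal was 134, rank 153 of 1043 in the pooled and 153 of 988 in the conservative list, with an IDR of 0.0581%. Replicate 1 gave it 71.3, rank 162 of 566, and replicate 2 gave it 60.4, rank 185 of 378. It was the one peak of the 5 in both replicates' own thresholded lists, with replicate summits 68 bp apart on either side of the pooled one. The tRNA gene is WBGene00023139 (tRNA-Asp, chrX:2227191-2227262, minus strand, 72 bp, T14F9.t1 in RefSeq), and the summit fell 33 bp after its first base.

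The printed tRNA gene occupies bases 18 to 89 of the lin-32 window and holds GTTCNANNC, a spelling of the internal B box to which the RNA polymerase III factor TFIIIC binds, at its bases 52 to 60. That motif, chosen after the sequence had been seen, was found within 50 bp of 169 of the 1043 thresholded summits and of 4.08% of ranked summits, and at none of the other 4 peaks. The same 72 bases stand at 21 places in the genome on 4 chromosomes, and 9 of them, this one included, had a thresholded summit within 200 bp, with signals of 61.7 to 136 and a median of 86.2. Of the 21 copies, 20 had a ranked peak at that distance. The copy near lin-32 had the second highest thresholded signal of the 9. Of the 31-base words within 100 bp of its summit, 69.6% occur once in the genome, so reads that lie wholly in the tRNA gene could come from any copy; how the authors placed such reads is not given in the sources used here, and their part in the signal was not tested. A non-coding RNA gene, T14F9.13, lay 242 bp from the summit.

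At lin-32 itself little was seen. Its window of 6.07 kb held 5 ranked peaks and none that passed. The strongest, 3464 bp upstream, had a signal of 42.3 and an IDR of 13.6%, with signals of 26.3 in replicate 1 and 16.5 in replicate 2. The peak at its start, with its summit 29 bp upstream, had a signal of 21.0 and an IDR of 76.6%. At 0.824 ranked peaks per kb, lin-32 lay low, at or above 10.7% of the protein-coding genes.

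The peak nearest to hlh-29 (WBGene00001968, chrX:17547492-17548639, minus strand) was intergenic. It spanned chrX:17544456-17544695, with its summit at 17544576, 2916 bp past the gene end and with no non-coding RNA gene within 500 bp. Its signal was 110, rank 248 in both the pooled and the conservative list, and its IDR was 0.0931%. Replicate 1 gave it 55.9, rank 275 of 566, and replicate 2 gave it 56.5, at rank 288 of its ranked peaks. It was absent from the thresholded list of replicate 2, where its IDR was 1.86%, although its signals in the replicates were nearly equal, at a ratio of 0.989. Of the 171 31-base words within 100 bp of its summit, 52.0% occur once in the genome, and the other 82 recur, all in inverted form, between 842 and 1206 bp from the summit on the side of the gene. Near that inverted stretch the ranked list has 1 peak, of signal 51.6, and the thresholded list none.

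The window of hlh-29 stood in a repeated region. The gene and hlh-28, each 1148 bp long, lie head to head with 2415 bp between them, and 1144 of the bases are identical in inverted form (99.7%). The identity runs on for 154 bp past the gene ends, and the stretch between the genes, folded back at its middle, is identical at 77.0% of its bases. Of the 31-base words, 8.94% in hlh-29 and 33.8% in its whole window occur once in the genome, and the share of the window is at or above that of 1.32% of the protein-coding genes. The window held 5 ranked peaks, and the gene none inside it. Their signals were 4.52 to 23.6, and none was matched in both replicates' ranked lists. The windows of hlh-29 and hlh-28 overlap and share 4 of the 5 ranked peaks that each holds. How many peaks this window would show with unique sequence was not tested.

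**Figure D2:**
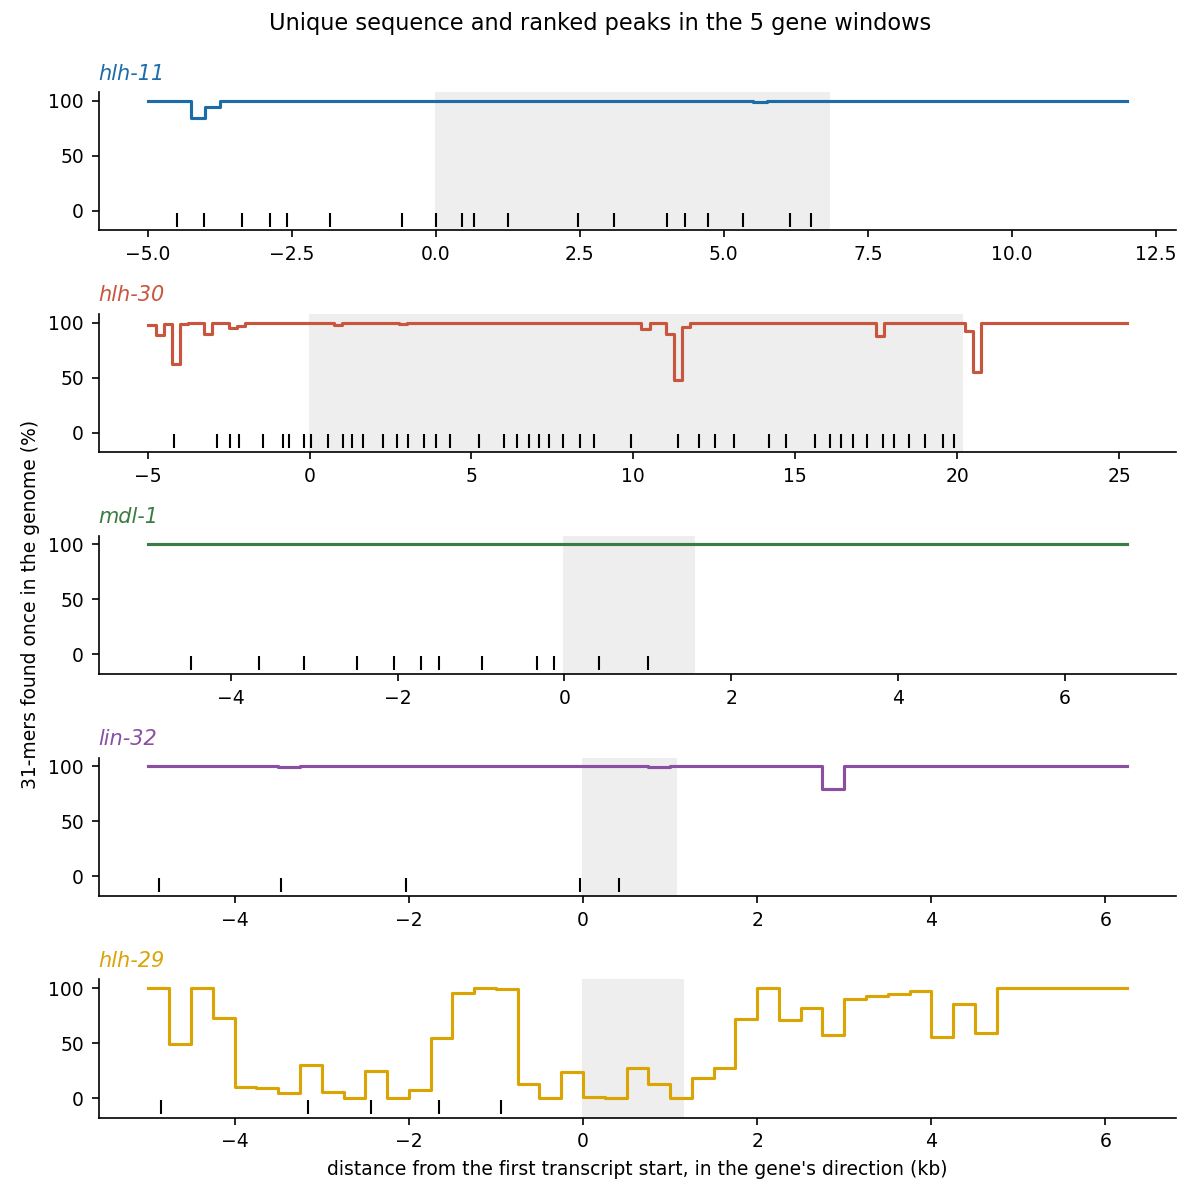
Unique sequence in the windows and past the gene ends. The x axis is the distance from the first transcript start in kb, in the direction of the gene, and the y axis is the percentage of 31-base words, in bins of 250 bp, that occur once in the genome on either strand; the shaded band is the gene and ticks are ranked peaks of the window. The line continues past the gene end, beyond the window, where peaks are not ticked. The windows of hlh-11, hlh-30, mdl-1 and lin-32 are 98.4% to 100% unique, and that of hlh-29 is 33.8% unique, with its ticks outside the gene.

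Over all 19973 protein-coding genes the share with a peak in the window was 7.84% in the conservative list, 4.81% in that of replicate 1 and 3.34% in that of replicate 2. Of the 5 genes, the window counts in these lists were 1 (mdl-1), 1 (hlh-30) and 0. In the ranked lists, 32 of the 87 peaks in the 5 windows (36.8%) were matched in both replicates, against 33686 of all 128328 (26.2%).

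Ordered by their strongest ranked signal inside the window, the genes ran mdl-1 (59.1), hlh-30 (57.2), hlh-11 (56.5), lin-32 (42.3) and hlh-29 (23.6). The first 3 differ by less than the replicate signals of the hlh-30 peak do. These signals lay at or above those of 87.0%, 85.9%, 85.5%, 60.3% and 2.70% of protein-coding genes. All passing peaks in the windows were below 78.8, the median of the thresholded list, and the only ones above it, at lin-32 and hlh-29, were outside the windows.

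**Figure D3:**
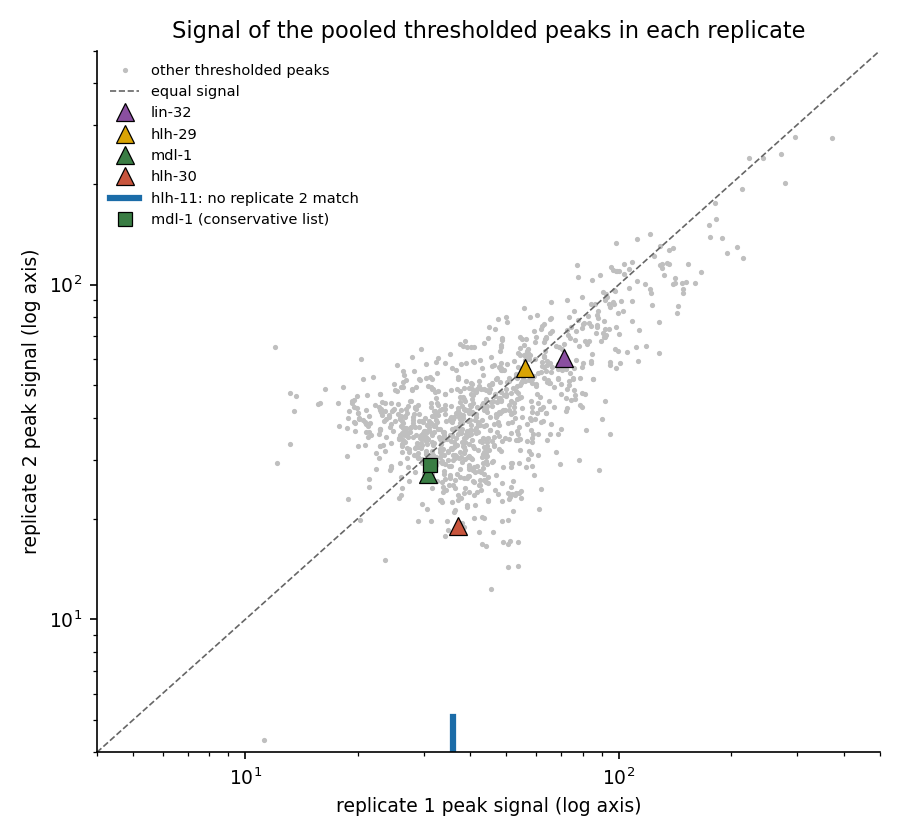
Signal in each replicate. Each grey point is a peak of the pooled thresholded list with a matched ranked peak in both replicates (1003 of 1043); the x axis is its signal in replicate 1 and the y axis its signal in replicate 2, both logarithmic, and the dashed line marks equal signal. Triangles are the thresholded peaks of the bHLH genes, the square is the conservative mdl-1 peak, and the bar on the x axis is the hlh-11 peak, which has no match in replicate 2. The lin-32 and hlh-29 peaks lie near the line, and the hlh-30 peak (37.2 in replicate 1 and 18.96 in replicate 2) lies below it.

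In the rest of the bHLH family a thresholded peak inside the window was found at 1 of 36 genes (2.78%). That gene was hlh-27, of the REF-1 family like hlh-29, so the family as a whole had 3 of 41 (7.32%), against 8.35% of all genes. The hlh-27 peak, at chrII:5543504-5543743 and 3411 bp upstream of the gene, had a signal of 150, rank 121, with 77.9 in replicate 1 and 78.4 in replicate 2. Its summit lay on sls-2.2, a gene of the spliced leader RNA that is joined to the front of many worm mRNAs, and on the overlapping non-coding RNA gene C17C3.23, and the nearest protein-coding start was that of ins-13, an insulin-like peptide gene. Like the lin-32 peak, it was thus a strong peak at a small RNA gene and not at the bHLH gene itself.

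Counts in the smaller branches of the family were too low to set against the 8.35% of all genes. None of the 5 genes of the Myc, Max and Mondo network (mdl-1, mxl-1, mxl-2, mxl-3 and mml-1) had a thresholded peak inside its window, nor did hlh-2, the E protein with which LIN-32 pairs, and 1 of 6 genes of the REF-1 family did. After mdl-1 (59.1), the strongest ranked signal in that network was at mxl-3, a Max-like gene, at 56.4, which differs little from the 56.5 of the hlh-11 peak that passed. The median of the strongest ranked signal was 36.8 over the 41 family genes and 39.1 over all protein-coding genes. The windows of hlh-17 and hlh-32 held no peak of the pooled ranked list, while the ranked list of replicate 1 held 5 and 2 there. Of the 31-base words in these windows, 93.3% and 69.1% occur once in the genome.

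**Figure D4:**
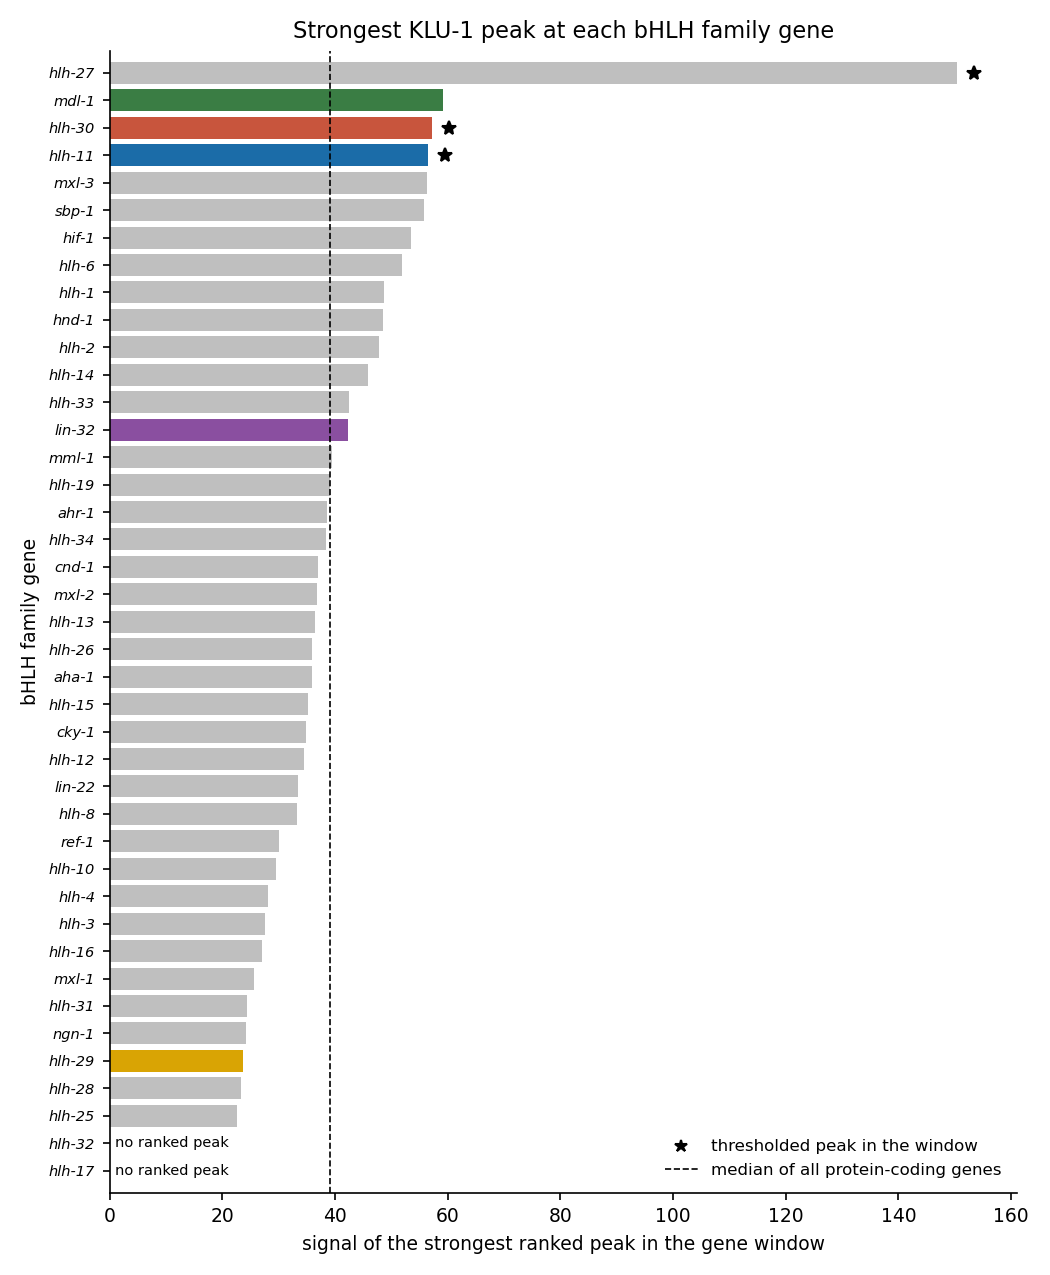
Strongest peak at each family gene. Bars give, for each of the 41 bHLH genes, the signal of the strongest pooled ranked peak between 5 kb upstream of the first start and the gene end; the 5 genes described here are coloured, stars mark a thresholded peak in the window, and the dashed line is the median of all protein-coding genes (39.1). Past hlh-27 (150), mdl-1, hlh-30 and hlh-11 follow with 59.1, 57.2 and 56.5, and hlh-29 (23.6) is 37th.

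Among autophagy and lysosome genes, the pathway that HLH-30 controls, 5 of 31 held a thresholded peak in their windows, against 8.35% of all genes. They were lipl-4, a lysosomal lipase gene (signal 101.1), vha-13, a subunit gene of the proton pump that acidifies lysosomes (98.7), atg-9, which encodes the membrane protein of autophagosome formation (73.7), and the conjugation enzyme genes atg-7 (67.9) and atg-3 (60.1). All 5 signals were above the 57.2 of the peak in hlh-30 itself. Only 8.05% of all thresholded peaks lay at or below that value, so nothing is read from this. A peak inside a window can be nearer to the start of another gene. The nearest starts of these 5 peaks, and RNA genes near them, were not examined. The list was drawn up with results of these data known, and 5 of 31 is a count with no test. The median of the strongest ranked signal was 44.4 over the 31 genes and 39.1 over all.

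The thresholded peaks whose signals in both replicates were most like those of each member, by distance on the log2 scale over the 2 replicates and among 1003 peaks, lay nearest to these genes. For lin-32 they were those of snt-7 and C01B10.9, at distances of 0.020 and 0.044. For hlh-29 they were F32D8.5 and cox-5A, at 0.062 and 0.074. For hlh-30 they were Y53F4B.21 and unc-16, both at 0.048, and for mdl-1 nrde-2 and atfs-1, at 0.0096 and 0.033. The hlh-11 peak has no value in replicate 2 and no such neighbours. With 2 replicates this likeness says only that the signals were of a size.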

How the data were processed

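Chromatin immunoprecipitation of eGFP-tagged KLU-1 was sequenced in 2 biological replicates of 1 group; nothing else in the labels separates them, and no test between groups was possible. Per the submitters' labels the peak lists are on assembly ce11, and their deposited descriptions mark them as ranked or thresholded by IDR. The sources used here do not give the aligner or the peak caller. The authors' lists give a signal per peak, a score computed from the IDR, and, in the deposited ranked lists, the −log10 of the IDR. No rescaling was applied between the signals of different lists. In each pooled ranked list, 8 columns that carry no sample name were not used. Depth is unknown, so no interval was computed.

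From these, summits were assigned to windows of Ensembl release 115 genes, 5 kb upstream of the first start to the gene end, or to the nearest protein-coding transcript start. Peaks of different lists were matched by an overlap of at least 50% of the shorter peak. Summits took the first class that applied of promoter, untranslated, coding or other exon, intron and intergenic. RNA genes were near within 200 bp, and listed to 500 bp. Uniqueness is the share of 31-base words found once on either strand. Motifs were searched on both strands within 50 bp of summits. The 5 genes, the gene lists and the motifs were chosen with earlier results of these data known. Genes named beside the 5 are those nearest to their summits, RNA genes listed there, family and pathway genes with a thresholded peak, and the 2 genes of the most alike peaks; neighbours, mxl-3, hlh-2, hlh-17, hlh-32, hlh-28 and R03E9.9 were named after their values were seen. Python 3.11.15, pandas 2.3.3, NumPy 2.4.6 and matplotlib 3.10.9 were used, and the matching and window steps were tested on simulated data.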

Additional observations from a re-analysis of the deposited data

How the results depend on the processing

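Of the 5 genes, 2 held a pooled thresholded peak in the window, 1 in the conservative list (mdl-1) and 0 among peaks at or above the median signal. Leaving out a replicate gave 0 to 1 of the 5 genes, 0 without replicate 1 and 1 without replicate 2 (hlh-30). By nearest transcript start 5 had a peak, and 4 with 5 kb on both sides, an alternative chosen after seeing the data. The number of thresholded peaks in the 5 windows took the same values as the number of genes in each of these settings. The count of family genes, 3, became 1 among peaks at or above the median signal, 1 without replicate 1, 7 with 10 kb upstream, 5 by nearest start and 5 with 5 kb on both sides. By nearest start the family genes were the 5 genes chosen for their peaks and no others. With 5 kb on both sides they were hlh-27 and 4 of the chosen genes. Nothing is therefore read from these counts against the shares of all genes. The share of protein-coding genes, 8.35%, became 4.64% among peaks at or above the median signal, 3.34% without replicate 1 and 4.81% without replicate 2. It was 12.3% with 10 kb upstream, 5.5% with the upstream part limited to the next gene, 4.76% by nearest start and 12.9% with 5 kb on both sides. The 1 peak of the 5 in both replicates' thresholded lists, that near lin-32, was the count under every overlap rule tried. When 100 bp on each side were searched, CACCC was in 2 windows and not 1, GAGAG in 3 and not 2, and CANNTG in 4 and not 3. At that width they were found at 24.6%, 48.6% and 53.9% of all thresholded summits. The cause of these changes beyond the settings' own construction was not tested. No paired analysis was possible because there is 1 group and no comparison between groups. With 2 replicates and no read counts, neither the spread between animals nor the counting error of a signal can be estimated, and the peaks of hlh-11, hlh-30 and mdl-1 lie near the threshold.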
